A study of Mus musculus with 58 samples.

Results

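The genes of the major histocompatibility complex (MHC) and of antigen presentation were followed in lung, liver and forestomach of male mice given benz(a)anthracene (BaA). They comprised every gene whose symbol starts with H2-, plus B2m, Cd74, Ciita, Nlrc5, Tap1, Tap2, Tapbp, Psmb8, Psmb9 and Psmb10. The rule used names only and no measured values, and it gave 60 genes, 44 of which had a probe among the 20018 named genes of the array. Of the 60, 45 belonged to class I (2 classical heavy chains, 35 non-classical heavy chains and 8 genes that partner, supply or switch on class I), 14 to class II, and H2-Ke6, an enzyme gene that lies in the MHC region and presents no antigen, was the remaining one. Its brightest probe stood for a gene, which was tested where the scanner software marked that probe as well above background on 4 or more arrays of the tissue. Lung had 35 such genes, liver 31 and forestomach 32, with 36 in any tissue and 29 in all 3. Another 8 genes had a probe but were tested in no tissue (H2-M1, H2-M5, H2-M9, H2-M10.1, H2-M10.2, H2-M10.3, H2-M10.4 and H2-M10.6), and 16 had none.

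The animals were Muta™Mouse, a transgenic line carrying a bacterial reporter gene for scoring mutations, about 10 weeks old. BaA, a polycyclic aromatic hydrocarbon, was given in olive oil by gavage every day for 28 days. The daily dose was 20 mg/kg-bw in D1, 40 mg/kg-bw in D2 and 80 mg/kg-bw in D3, and control mice (D0) had olive oil alone. Tissues were taken 72 h after the last dose. Lung had 5 mice in each group, liver 5, 5, 5 and 4 from D0 to D3, and forestomach 4, 5, 5 and 5 (the liver of mouse 20 and the forestomach of mouse 5 were not analysed here). Mice 1 to 5 were D0, 6 to 10 D1, 11 to 15 D2 and 16 to 20 D3, and the same number in several tissues is the same animal. Each value is a log2 ratio of the tissue RNA to a universal mouse reference RNA on the same array, so a value of 1 is a level above the reference by 1 doubling. The ratios were made from signals with no background subtracted, which pulls the ratios of dim probes towards 0. A gene was called at a limma adjusted p (Benjamini-Hochberg, over all probes tested) of at most 0.05 and a fold change of at least 1.5.

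Class I molecules display peptides from proteins made inside the cell to CD8 T cells. A heavy chain (H2-K1 and H2-D1 are the classical ones) pairs with β2-microglobulin (B2m) in the endoplasmic reticulum. Peptides are cut by the immunoproteasome (Psmb8, Psmb9, Psmb10), carried in by the transporter TAP (Tap1, Tap2) and loaded with the help of tapasin (Tapbp), and Nlrc5 is the transactivator of these genes. Class II molecules (H2-Aa with H2-Ab1, and H2-Eb1 as the chain of the E molecule) display peptides from outside the cell to CD4 T cells, mostly on dendritic cells, B cells and macrophages. The invariant chain (Cd74) guides them, DM (H2-DMa with H2-DMb1 or H2-DMb2) exchanges their peptides, and DO (H2-Oa with H2-Ob), known best from B cells, restrains DM. Ciita is the transactivator of class II genes, and it docks on factors bound at an X box and a Y box upstream of the gene start.

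The promoters of the DO pair, on which the lung results turn, are shown with those of H2-Aa and H2-Eb1, which are classical class II chains. Each is the sequence of 250 bases before to 50 bases after the gene start from RefSeq (GRCm38.p6), read 5′ to 3′ on the gene's own strand. Capitals mark GCAAC, a core of the X box, and ATTGG, the core of the Y box. The windows are chr17:34092129-34092428 (plus strand) for H2-Oa, chr17:34238655-34238954 (plus strand) for H2-Ob, chr17:34287774-34288073 (minus strand) for H2-Aa and chr17:34305617-34305916 (plus strand) for H2-Eb1.
H2-Oa: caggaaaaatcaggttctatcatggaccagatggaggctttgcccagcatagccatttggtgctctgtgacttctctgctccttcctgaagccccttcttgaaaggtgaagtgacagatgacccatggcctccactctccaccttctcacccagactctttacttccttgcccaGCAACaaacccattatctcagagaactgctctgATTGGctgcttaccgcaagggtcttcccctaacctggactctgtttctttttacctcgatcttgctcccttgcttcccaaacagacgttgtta
H2-Ob: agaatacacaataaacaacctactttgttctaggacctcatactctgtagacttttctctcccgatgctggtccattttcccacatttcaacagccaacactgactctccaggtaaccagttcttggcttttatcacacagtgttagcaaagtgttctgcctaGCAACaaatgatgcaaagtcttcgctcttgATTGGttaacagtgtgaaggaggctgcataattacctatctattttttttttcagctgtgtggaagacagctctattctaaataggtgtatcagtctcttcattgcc
H2-Aa: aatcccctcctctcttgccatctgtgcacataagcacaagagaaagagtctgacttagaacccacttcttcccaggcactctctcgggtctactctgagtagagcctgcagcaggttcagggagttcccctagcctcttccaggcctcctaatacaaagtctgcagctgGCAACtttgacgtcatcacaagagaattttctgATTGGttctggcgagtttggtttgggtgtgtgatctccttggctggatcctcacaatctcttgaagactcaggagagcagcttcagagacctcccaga
H2-Eb1: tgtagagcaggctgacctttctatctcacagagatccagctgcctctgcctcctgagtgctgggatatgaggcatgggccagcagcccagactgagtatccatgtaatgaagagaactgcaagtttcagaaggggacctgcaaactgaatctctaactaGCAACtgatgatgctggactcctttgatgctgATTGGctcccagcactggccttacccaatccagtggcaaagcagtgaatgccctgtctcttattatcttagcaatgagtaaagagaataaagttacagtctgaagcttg

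The cores were separated by 28 bases in H2-Oa, 25 in H2-Ob, 28 in H2-Aa and 27 in H2-Eb1, and the Y core ended 38, 52, 43 and 54 bases before the start. Searched on both strands, GCAAC followed by ATTGG within 40 bases was found in 1.76% of 32851 promoters. Of the 38 MHC and presentation genes with a promoter in the table, 8 were class II genes, and 5 of these held the pair (the 4 shown and H2-Eb2), against 0 of 2 classical, 0 of 21 non-classical and 0 of 6 partner and supply genes of class I. Taken alone, GCAAC was in 35.2% and ATTGG in 37.4% of promoters. GCGTG, the core to which the aryl hydrocarbon receptor binds, was in 32.4% of promoters, in 0 of 8 class II genes, 2 of 2 classical, 6 of 21 non-classical and 4 of 6 partner and supply genes. GCGTG was therefore absent from the promoters shown, and a match describes the letters of the window only.

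In control mice the tissues differed widely in these genes, and class II and class I did so in different ways. Class II genes were highest in lung. The classical class I chains and B2m were at high levels in lung and liver and low in forestomach. Between lung and liver at D0, 29 of 36 genes were called (55.3% of all genes tested), 19 higher in lung (31.2% of all genes) and 10 lower (24.2%). Between lung and forestomach 29 of 35 were called (39.5% of all genes), all higher in lung, where 20.7% of all genes were higher. Between liver and forestomach 24 of 34 were called (49.3% of all genes), 22 higher in liver (22.3%) and 2 lower (27%). For levels, a gene was tested if it passed the filter in either tissue of a pair. H2-Oa, H2-Ob and Ciita passed in lung and forestomach but not in liver, and H2-Eb2 and H2-DMb2 in lung alone. H2-T3 passed in liver alone, and H2-Q1 in lung and liver. This filter favours the tissue that admitted a gene, so the direction of such genes carries little weight. The tissues were hybridised on different slides, so for levels the tissue and the slide cannot be told apart.

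**Figure D1:**
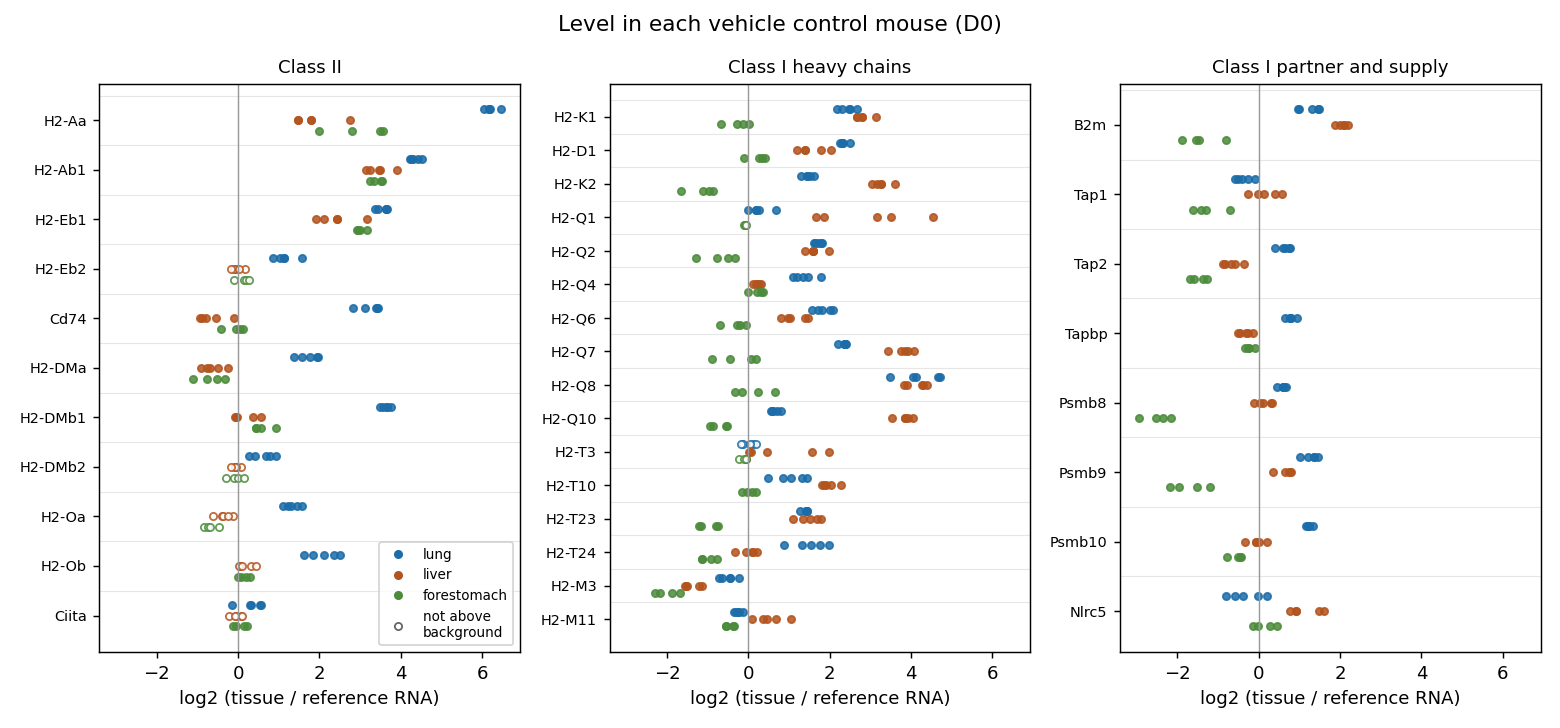
Log2 ratio to the reference RNA (horizontal axis) of each control mouse in lung, liver and forestomach, for class II genes, class I heavy chains, and the partner and supply genes of class I. Each dot is 1 mouse, and open dots mark tissues where the gene was not above background on any control array. Class II dots of lung lie above those of liver and forestomach for H2-Aa (6.04 to 6.46 in lung), and the B2m dots of forestomach lie lowest (-1.88 to -0.80).

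Among class II genes, the α chain H2-Aa stood at 6.17, 6.46, 6.18, 6.04 and 6.19 in the 5 control lungs, at 1.80, 1.47, 1.48, 1.80 and 2.74 in the livers and at 2.80, 1.99, 3.48 and 3.55 in the forestomachs. No lung overlapped another tissue. The difference between lung and liver was 4.35 (SE 0.28, 20.4-fold, limma adjusted p = 2.01e-19), and that between lung and forestomach 3.25 (9.51-fold, adjusted p = 2.04e-13). The invariant chain Cd74 stood at 2.82 to 3.45 in lung and at -0.93 to -0.09 in liver, a difference of 3.89 (SE 0.20, 14.8-fold, adjusted p = 1.76e-23). The DM chain H2-DMb1 was higher in lung than in liver by 3.47 (SE 0.17, 11.1-fold, adjusted p = 2e-24) and its partner H2-DMa by 2.34 (SE 0.17, 5.08-fold, adjusted p = 1.34e-17).

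H2-Ab1 and H2-Eb1, β chains of the A and E molecules, showed smaller differences between lung and the other tissues than H2-Aa did. H2-Ab1 was 4.34 ± 0.12 (SD, n = 5) in lung, 3.45 ± 0.29 in liver and 3.40 ± 0.15 in forestomach, and H2-Eb1 was 3.54 ± 0.14, 2.41 ± 0.48 and 3.01 ± 0.10. Lung was higher than liver by 1.86-fold for H2-Ab1 and 2.19-fold for H2-Eb1. Liver and forestomach did not differ detectably for H2-Ab1 (0.04, SE 0.12, adjusted p = 0.759), while H2-Aa and H2-Eb1 were lower in liver by 2.14-fold and 1.51-fold (adjusted p = 0.00141 and 0.000709). Reference sequences were used to design the probes, and the strain's MHC alleles can differ from them, so neither a level nor the size of a difference ranks one chain against another.

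Several class II genes were above background mainly in lung. The DO chain H2-Oa was above background on all 5 control lungs (1.33 ± 0.19), on 0 of 4 control forestomachs, and on 1 of 19 livers in all. It was above background on 0 of 5 control livers, so its ratios in both dim tissues are limited by background. For H2-Oa and the next 3 genes the fold is therefore a bound. It sets the mean of lung in the Cy5 channel against the lowest signal that passed as above background in the dim tissue. Where the dim probe's own signal was higher, that was used. H2-Oa was at least 3.3-fold higher in lung than in liver and at least 4.61-fold higher than in forestomach. H2-Ob was at least 3.17-fold higher in lung than in liver, where it was above background on 0 arrays. H2-Eb2 and H2-DMb2, a β chain like H2-Eb1 and a DM chain, were at least 1.66-fold and 1.21-fold higher in lung than in liver. Ciita was close to background everywhere (0.31 ± 0.29 in lung) and was not called between tissues.

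Class I did not follow class II. H2-K1 stood at 2.43 ± 0.19 (SD, n = 5) in lung, 2.82 ± 0.19 in liver and -0.26 ± 0.30 (n = 4) in forestomach, and H2-D1 at 2.33 ± 0.10, 1.56 ± 0.34 and 0.23 ± 0.23. Lung and liver were both above forestomach, by 6.47-fold and 8.45-fold for H2-K1. Lungs had B2m at 0.96 to 1.48, livers at 1.89 to 2.19 and forestomachs at -1.88 to -0.80, with no overlap between tissues. Liver was above lung by 1.76-fold (adjusted p = 0.000597) and above forestomach by 11.2-fold (adjusted p = 1.58e-19). H2-T23, which encodes Qa-1, was 1.39 ± 0.08 in lung, 1.49 ± 0.28 in liver (a difference of -0.09, SE 0.16, adjusted p = 0.602) and -0.98 ± 0.25 in forestomach. H2-M3, which presents formylated bacterial peptides, was -0.50 ± 0.18 in lung, -1.39 ± 0.20 in liver and -2.01 ± 0.27 in forestomach.

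The non-classical heavy chains split most. H2-Q10, a secreted class I protein known from liver, was 3.84 ± 0.19 in liver, 0.65 ± 0.10 in lung and -0.72 ± 0.22 in forestomach. Liver exceeded lung by 9.12-fold (adjusted p = 4.21e-29) and forestomach by 23.5-fold (adjusted p = 1.18e-34), and the gene's other probe gave larger differences of the same sign (-8.49 for lung minus liver and 7.82 for liver minus forestomach). H2-Q7, a Qa-2 heavy chain, was 2.78-fold and H2-K2, a transcribed pseudogene, 3.51-fold higher in liver than in lung. H2-Q8 was 4.21 ± 0.51 in lung and 4.14 ± 0.26 in liver, against 0.10 ± 0.44 in forestomach. H2-Q1 was above background in every liver and no forestomach, where liver was at least 5.74-fold higher. Heavy chains are near-identical copies of one another, so part of a probe's signal may come from a related gene, and which share it was could not be told.

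The immunoproteasome and the peptide transporter followed lung over forestomach. Psmb8 was higher in lung than in forestomach by 8.45-fold (adjusted p = 5.03e-21), Psmb9 by 7.96-fold, Psmb10 by 3.45-fold, Tap2 by 4.32-fold, Tapbp by 2.03-fold and Tap1 by 1.85-fold. Against liver, lung was higher for Tap2 (2.46-fold), Psmb10 (2.45-fold), Tapbp (2.18-fold) and Psmb9 (1.54-fold), while Psmb8 and Tap1 were not called. Nlrc5 ran the other way, at -0.32 ± 0.41 in lung, 1.15 ± 0.38 in liver and 0.14 ± 0.28 in forestomach. Its lung level was 2.76-fold below that of liver (adjusted p = 4.5e-07), while its second probe differed by -0.50 and missed the fold limit. Median differences over the tested genes were 1.67 for class II, -0.24 for class I heavy chains and 0.54 for the partner and supply genes between lung and liver (all genes 0.07), and 1.95, 2.15 and 1.95 between lung and forestomach (all genes -0.02). Between liver and forestomach they were -0.08, 2.15 and 1.22 (all genes -0.04). The class II medians include genes that passed the filter in only 1 tissue of the pair.

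General leukocyte markers were highest in lung, as class II genes were. Their list averaged -0.11 to 0.29 over the control lungs, against -2.24 to -1.73 over livers and -2.58 to -1.90 over forestomachs. It was low in both liver and forestomach, between which the class I heavy chains differed by a median of 2.15, and a macrophage list ran from 2.06 to 2.73 in control lungs (5 genes tested) and from 1.72 to 2.59 in livers (6 genes). In whole tissue, fewer cells of a type and less RNA per cell cannot be told apart, and the part of leukocyte content in the tissue differences was not tested. The tissues carried the markers of their names, with a hepatocyte list at 6.75 to 7.33 in control livers, a lung epithelium list at 6.96 to 7.32 in control lungs, and a squamous epithelium list at 2.86 to 3.63 in control forestomachs.

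In lung, 1 pair of class II genes rose in mice given BaA, the chains of DO. H2-Oa was higher by 1.92-fold at D2 and 1.88-fold at D3, and H2-Ob by 1.78-fold at D2 and 1.54-fold at D3. At D1 limma called 0 of 35 genes (0% of all genes tested), and 8 of the 35 had an unadjusted p under 0.05 (8.53% of all genes). At D2 it called 2 of 35 (0.593% of all genes, 0.517% higher), at D3 2 of 35 (2.04%, 1.56% higher), and over the dose trend 1 of 35 (12.8%, 9.19% rising, at an adjusted p of at most 0.05 with no fold limit). The doses share their control mice, so these results are not independent of each other.

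H2-Oa stood at 1.58, 1.22, 1.30, 1.11 and 1.45 in control lungs and at 2.18, 1.66, 2.01, 1.51 and 1.73 at D1. It was at 2.43, 2.15, 2.17, 2.65 and 1.96 at D2 and at 2.23, 2.50, 2.32, 2.04 and 2.11 at D3. Every lung of D2 and D3 lay above every control lung, while D1 overlapped the controls. The change was 0.94 at D2 (SE 0.14, 95% interval 0.65 to 1.23, limma adjusted p = 0.00162) and 0.91 at D3 (SE 0.14, 0.62 to 1.20, adjusted p = 0.000638), and at D1 it was 0.49 (adjusted p = 0.367). The slope was 0.88 per 80 mg/kg-bw/day (SE 0.17, adjusted p = 0.00253). Values of D2 (2.27 ± 0.27) and D3 (2.24 ± 0.18) overlapped and their difference was not tested.

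H2-Ob stood at 2.51, 2.12, 2.35, 1.62 and 1.84 in control lungs and at 3.01, 2.16, 2.33, 2.35 and 2.64 at D1. It was at 2.72, 2.99, 2.85, 3.29 and 2.77 at D2 and at 2.52, 2.90, 2.86, 2.68 and 2.60 at D3. The D3 lungs cleared the controls by a narrow margin, the lowest at 2.52 against a highest control of 2.51. The change was 0.83 at D2 (SE 0.17, limma adjusted p = 0.0144) and 0.62 at D3 (SE 0.17, 95% interval 0.27 to 0.97, adjusted p = 0.0246), while the slope was not called (0.60 per 80 mg/kg-bw/day, adjusted p = 0.0542). The gene's second probe rose by 1.03 at D2 and 1.03 at D3 and its slope was called (1.04, adjusted p = 0.00202). Of all genes tested, 5.69% at D2 and 8.79% at D3 had no overlap with the controls, against 2 of 35 here at each dose.

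**Figure D2:**
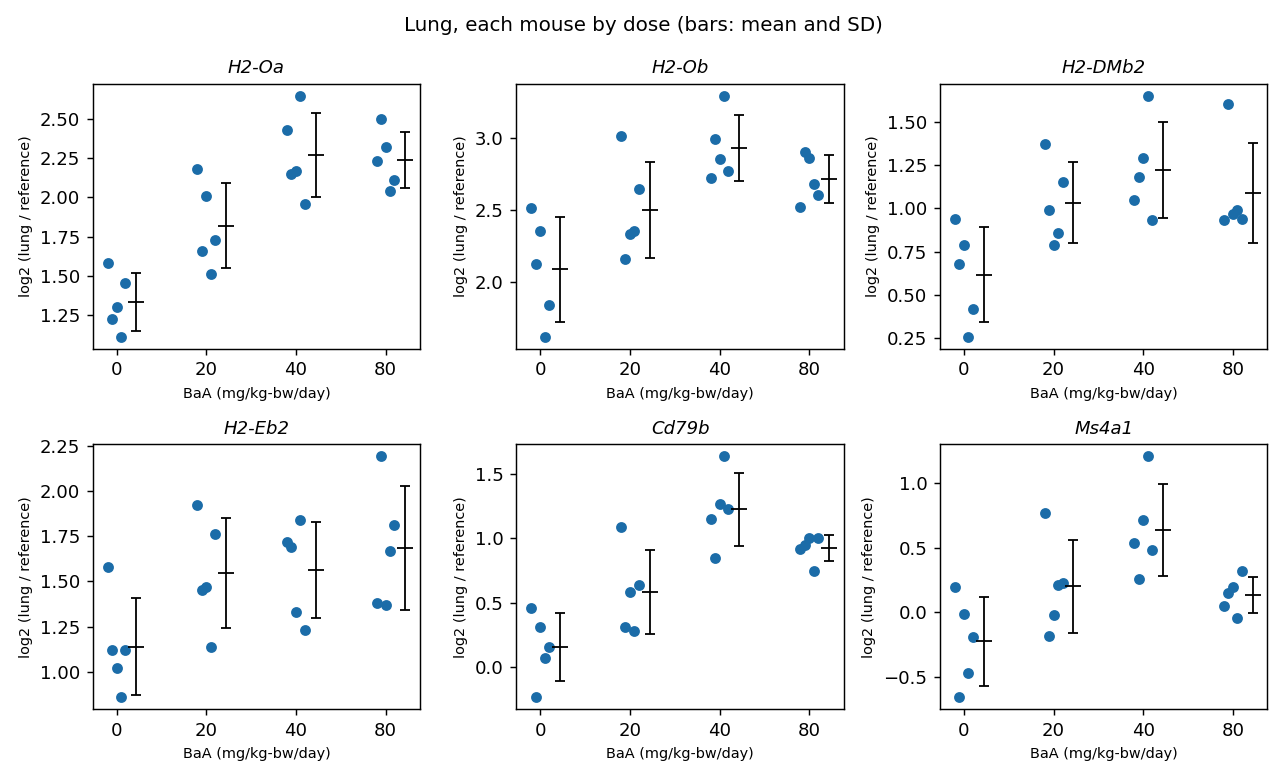
Log2 ratio to the reference RNA (vertical axis) in each lung by dose of BaA in mg/kg-bw/day (horizontal axis) for H2-Oa, H2-Ob, H2-DMb2, H2-Eb2 and the B cell genes Cd79b and Ms4a1. Dots are mice, and bars give the mean and SD of each group. The lungs of D2 and D3 lie above every control for H2-Oa (1.96 or more against at most 1.58) and for Cd79b (0.75 or more against at most 0.46).

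Both calls were looked at within slides, since the lung arrays lay on 3 slides. On slide 1, 44.4 to 49.6% of spots were well above background, against 53 to 55.2% on slides 2 and 3. On slides 1, 2 and 3 in turn, H2-Oa differed from the controls by 0.69, 1.11 and 0.89 at D2 and by 0.94, 0.75 and 0.97 at D3. H2-Ob differed by 1.04, 0.72 and 0.54 at D2 and by 1.00, 0.32 and 0.39 at D3. All 12 differences were positive, and with the slide as a block H2-Oa kept its calls (0.92 at D2 and 0.91 at D3, adjusted p = 0.00201 and 0.00052). H2-Ob kept its own (adjusted p = 0.0143 and 0.0158). With arrays centred on their medians in place of loess neither was called, H2-Oa differing by 1.23 at D2 and 0.95 at D3 (adjusted p = 0.327 and 0.952) where the median of all genes was 0.49 and 0.23. In the reference channel the pair differed from the controls by 0.03 to 0.07 in lung, and no difference of it was called.

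Some B cell markers rose at the doses where the DO pair did, and others did not. The mean of 7 B cell genes ran from 0.82 to 1.16 in control lungs, 0.98 to 1.59 at D1, 1.28 to 1.80 at D2 and 1.13 to 1.35 at D3. Of the 7, 4 rose at D2 (Cd79b, Cd79a, Ms4a1 and Fcer2a) and 2 at D3 (Cd79b and Fcer2a), where 0.517% and 1.56% of all genes were called higher. Cd79b, a chain of the B cell receptor, stood at 0.46, -0.24, 0.31, 0.07 and 0.15 in control lungs, at 1.15, 0.85, 1.27, 1.64 and 1.23 at D2 and at 0.92, 0.95, 1.00, 0.75 and 1.00 at D3. No lung of D2 or D3 overlapped a control, and the changes were 1.08 and 0.77 (limma adjusted p = 0.00132 and 0.00417). Ms4a1, which encodes CD20, changed by 0.87 at D2 (adjusted p = 0.0197) and differed by 0.36 at D3 (adjusted p = 0.245). The other 3 markers, Pax5, Cr2 and Cd22, differed by 0.14, 0.04 and -0.22 at D3 and were not called. The part of B cell content in the DO result was not tested.

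Lists of other cell types had few calls in lung. Those of dendritic cells (1.14 to 1.49 at D0, 1.44 to 1.66 at D3), macrophages (2.06 to 2.73 and 2.29 to 2.48) and general leukocytes (-0.11 to 0.29 and -0.04 to 0.31) had no called gene at D3 other than Ccr7, a homing receptor of the dendritic list that rose by 0.68 (adjusted p = 0.0297). Xcr1, a defining marker of cross-presenting dendritic cells, was not above background on any lung. The T cell list ran from -0.09 to 0.27 at D0 and 0.11 to 1.69 at D3, with 0 genes called, and the lung epithelium list from 7.05 to 7.23 at D3.

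Single mice stood out in these lungs. Mouse 17 (D3) was the highest of its group for H2-Oa, H2-Ob, H2-DMb2 and H2-Eb2, and its lung sample also carried the immature T cell genes Rag1 (4.19, against 0.03 to 0.11 in the other D3 lungs) and Dntt (3.78). Without mouse 17, H2-Oa at D3 was 0.85 (adjusted p = 0.00267) and H2-Ob 0.58 (adjusted p = 0.0696), so the call of H2-Ob at D3 was lost, as it was without mouse 4, 5 or 18. Mouse 14 (D2) was the highest of its group for H2-Oa and H2-Ob, and its fat marker Adipoq stood at 5.63 against 1.05 to 1.73. Without mouse 14, H2-Oa at D2 was 0.85 (adjusted p = 0.00524) and H2-Ob 0.74 (adjusted p = 0.0365).

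The remaining class II genes of lung were not called at any dose as processed here, and some alternatives called 1 of them. The largest differences were those of H2-DMb2 at D2 (0.60, adjusted p = 0.057) and H2-Eb2 at D3 (0.55, adjusted p = 0.0566). H2-DMb2 at D2 was called with normexp background correction (0.60, adjusted p = 0.0358) and without mouse 1 (0.68, adjusted p = 0.0402), and H2-Eb2 at D3 without mouse 1, 16 or 18 (0.62 to 0.66, adjusted p = 0.0239 to 0.0462). H2-DMb2 stood at 0.26 to 0.94 in control lungs, where it was above background on 3 of 5, at 0.93 to 1.65 at D2 and at 0.93 to 1.60 at D3. H2-Eb2 stood at 0.86 to 1.58 in control lungs and at 1.37 to 2.19 at D3. Both genes overlapped the controls. At D1 the 3 largest after H2-Oa were H2-DMa (0.46, adjusted p = 0.57), H2-DMb2 (0.41) and, at the same size, H2-Ob and H2-Eb2.

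The abundant class II chains and their chaperone differed little from controls in lung. At D3 the change was 0.00 for H2-Aa (95% interval -0.33 to 0.33), 0.08 for H2-Ab1 (-0.06 to 0.22), 0.06 for H2-Eb1 and 0.06 for Ciita. It was 0.40 for Cd74 (0.08 to 0.73, adjusted p = 0.116), 0.29 for H2-DMa and 0.13 for H2-DMb1. Over the 11 class II genes the median change was 0.37 at D1, 0.23 at D2 and 0.29 at D3, against 0.00, 0.02 and 0.03 over all genes. Estimates above 0 were those of 9, 10 and 11 of the 11. The D3 count includes H2-Aa at 0.00 and rests on the shown probe of each gene. H2-Ab1 had a second probe that differed by -0.04, -0.06 and -0.1 from D1 to D3. These counts were not tested. Under the alternatives in processing other than median centring the D3 median ran from 0.24 to 0.33. It was 0.20 to 0.43 when single mice were left out.

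Class I genes of lung gave 0 calls at every dose. Median changes of the 15 heavy chains were 0.06, -0.13 and -0.04 from D1 to D3, and those of the 8 partner and supply genes 0.14, 0.15 and 0.14. With median centring the heavy-chain medians at D2 and D3 turned to 0.44 and 0.19, against 0.49 and 0.23 over all genes. At D3 H2-K1 differed by -0.02 (95% interval -0.35 to 0.31), H2-D1 by 0.05 (-0.25 to 0.35), B2m by 0.10 (-0.32 to 0.52) and H2-T23 by -0.04. Tap1 differed by 0.15, Tap2 by 0.09, Tapbp by 0.02, Psmb8 by 0.18, Psmb9 by 0.18, Psmb10 by 0.13 and H2-M3 by 0.25. Nlrc5 differed by 0.55 at D2 and 0.48 at D3 (adjusted p = 0.253 and 0.228), while its second probe differed by 0.07 and -0.08. Psmb8 at D1 had no overlap with the controls (0.73 to 1.20 against 0.45 to 0.67) but was not called (0.37, adjusted p = 0.431), and 1 of 35 genes here against 1.1% of all genes showed such a gap at D1.

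**Figure D3:**
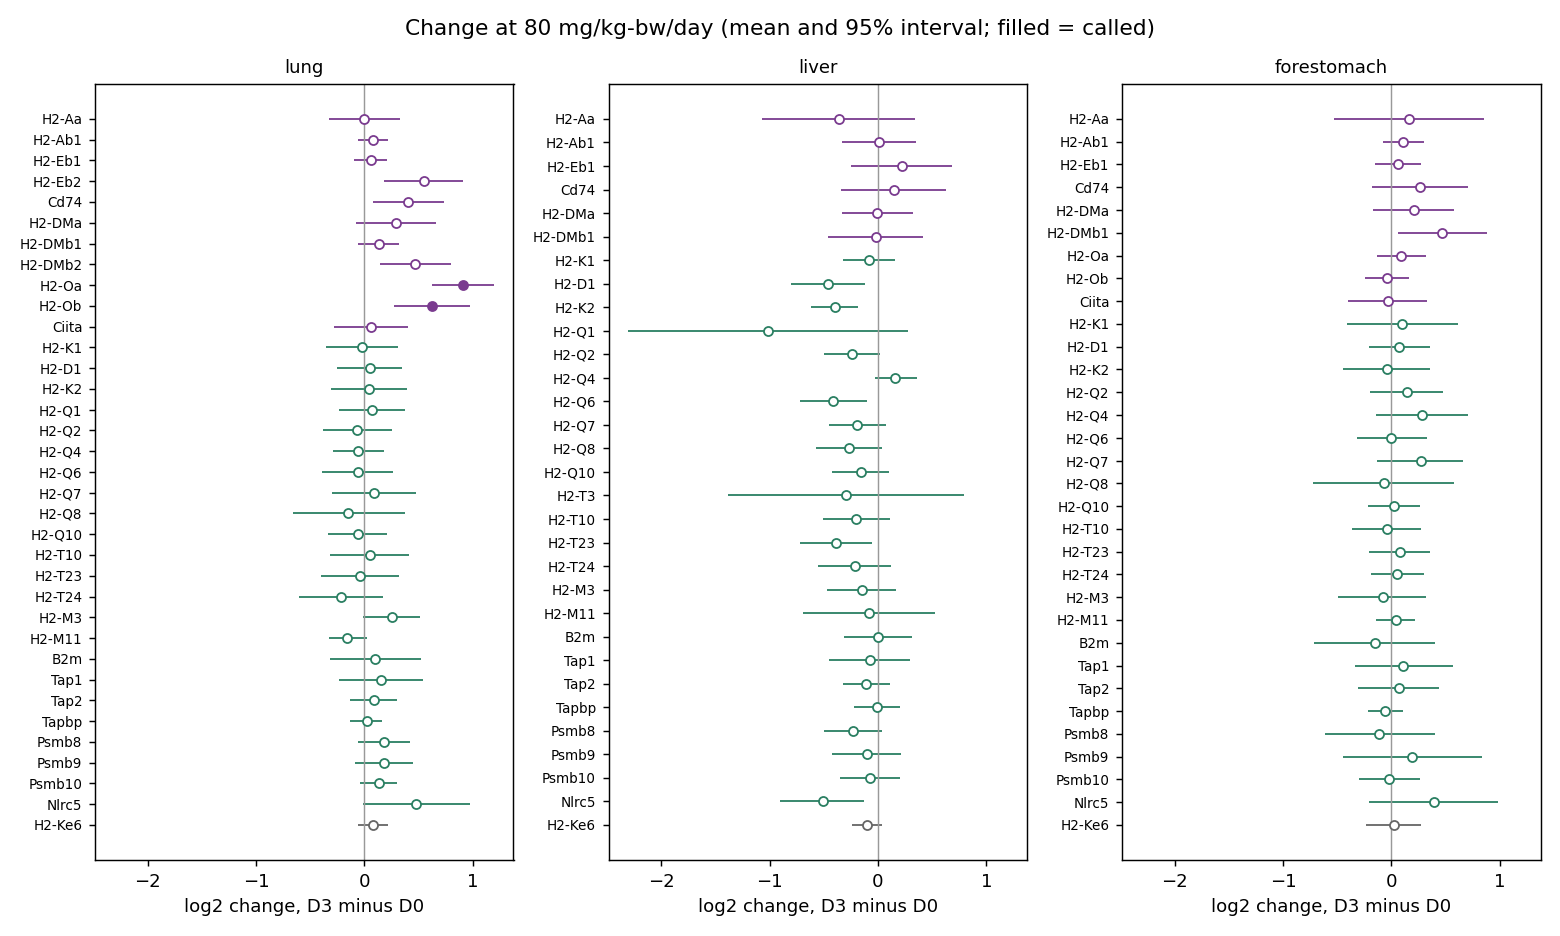
Log2 change from D0 to D3 (horizontal axis, mean difference with its 95% interval) of each tested gene in lung, liver and forestomach. Filled points were called by limma, with class II in purple, class I in green and H2-Ke6 in grey. The called points are those of H2-Oa (0.91) and H2-Ob (0.62) in lung, and none was called in liver or forestomach.

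In liver, dosed mice had less Nlrc5 at D2. The gene is the class I transactivator. It stood at 0.93, 1.48, 0.93, 1.61 and 0.77 in control livers, at 0.51, 0.41, 1.28, 0.41 and 0.94 at D1, at 0.13, -0.04, -0.01, 0.29 and 0.14 at D2 and at 0.48, 0.86, 0.50 and 0.69 at D3. The D2 livers lay below every control, while those of D1 and D3 overlapped the controls. The D2 change was -1.04 (SE 0.18, 95% interval -1.41 to -0.68, 2.06-fold lower, limma adjusted p = 0.00815), and those at D1 and D3 were -0.44 and -0.51 (adjusted p = 0.526 and 0.178). On slides 1, 2 and 3 the D2 difference was -0.98, -1.13 and -0.89.

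The fall of Nlrc5 rested on 1 of its probes. The second probe differed by -0.21 at D2 (adjusted p = 0.525). In a model of only the D0 and D2 livers the adjusted p of the first was 0.0565. Nlrc5 was the only gene of 31 called at D2 (0.466% of all genes tested, 0.433% lower), and 8 had an unadjusted p under 0.05 (14.1% of all genes). At D1 limma called 0 of 31 (0.2% of all genes), with 3 at an unadjusted p under 0.05 (7.84% of all genes). At D3 it called 0 of 31 (0.308%), with 5 at an unadjusted p under 0.05 (16.7%).

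**Figure D4:**
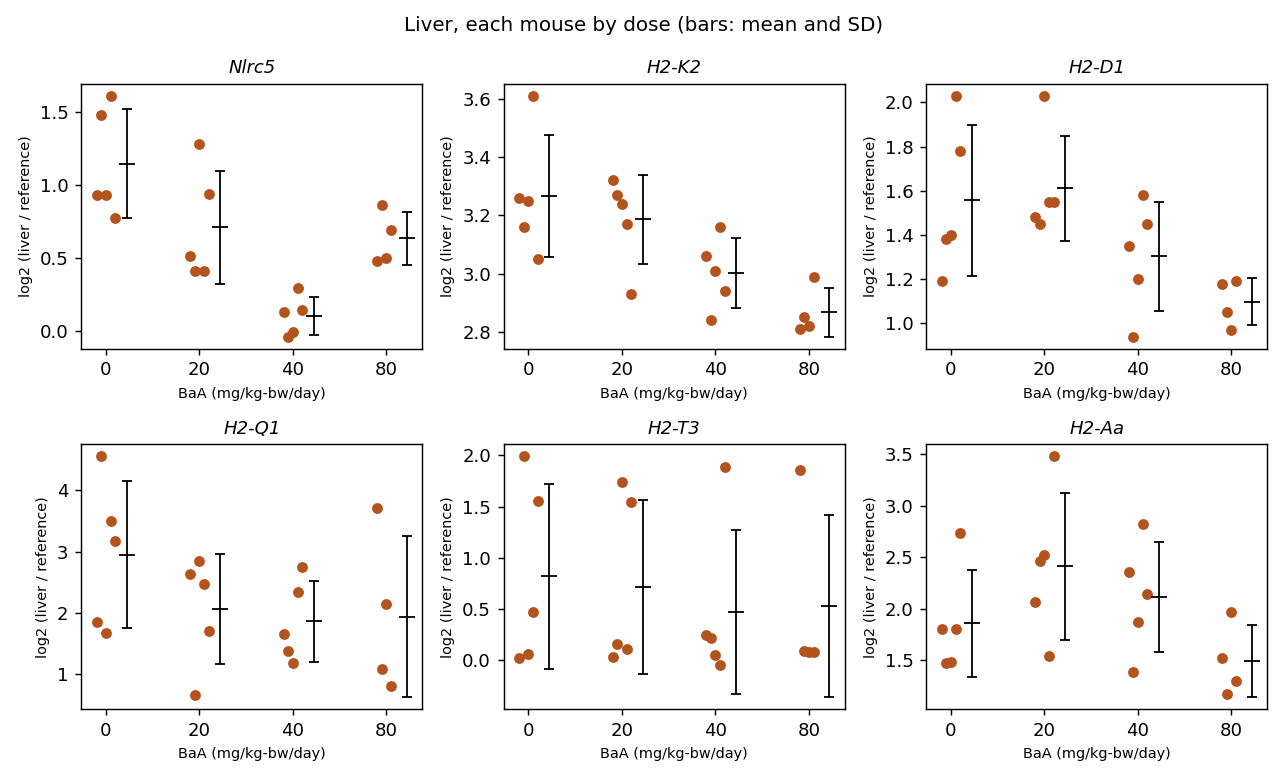
Log2 ratio to the reference RNA (vertical axis) in each liver by dose of BaA in mg/kg-bw/day (horizontal axis) for Nlrc5, H2-K2, H2-D1, H2-Q1, H2-T3 and H2-Aa. Dots are mice, and bars give the mean and SD of each group. Nlrc5 is lowest at D2 (-0.04 to 0.29 against 0.77 to 1.61 at D0), and H2-Q1 spreads from 0.66 to 4.55 within the tissue.

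Over the dose trend in liver, 1 of 31 genes was called (1.07% of all genes, 0.4% falling), and 8 had an unadjusted p under 0.05 (17% of all genes). H2-K2, the transcribed pseudogene, fell by 0.42 on the log2 scale per 80 mg/kg-bw/day (SE 0.10, limma adjusted p = 0.0432). It stood at 3.26, 3.16, 3.25, 3.61 and 3.05 in control livers and at 2.81, 2.85, 2.82 and 2.99 at D3, with no overlap (D3 difference -0.40, adjusted p = 0.0669). Livers of a dose had no overlap with the controls for 1, 3 and 1 of 31 genes at D1, D2 and D3, against 1.34%, 3.17% and 5.91% of all genes. Its other probe had a slope of -0.26 (adjusted p = 0.30), and the call was lost without any 1 of 12 mice. Slopes of H2-D1 (-0.52, adjusted p = 0.109), H2-Q6 (-0.45, adjusted p = 0.122) and H2-T23 (-0.43, adjusted p = 0.166) had the same sign and were not called.

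Most class I heavy chains of liver had an estimate below 0 at D2 and D3, and 0 of 16 were called at a dose. Their median change was 0.05 at D1, -0.19 at D2 and -0.23 at D3 (all genes 0.01, 0.01 and 0.03). Below 0 were 14 of 16 at D2 and 15 of 16 at D3. Related heavy chains may share a probe's signal, and both doses were set against the same control livers. The 16 signs are therefore not separate observations, and the counts were not tested. At D3 H2-D1 differed by -0.46 (95% interval -0.80 to -0.12, adjusted p = 0.169), H2-T23 by -0.39, H2-K1 by -0.08 and H2-M3 by -0.15. Of the partner and supply genes, B2m differed by -0.33 at D2 (adjusted p = 0.295) and 0.00 at D3, Psmb8 by -0.27 and -0.23, and Psmb9 by -0.24 and -0.10. Tap1, Tap2, Tapbp and Psmb10 differed by -0.07, -0.11, -0.01 and -0.07 at D3. Under other processing the heavy-chain median at D3 ran from -0.36 to -0.16, and from -0.31 to -0.16 without single mice.

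Class II genes of liver had medians of 0.37, 0.24 and 0.00 from D1 to D3 over 6 tested genes, and limma called none (0 at each dose). H2-Aa differed by 0.56 at D1 (adjusted p = 0.757), 0.26 at D2 and -0.36 at D3, the last of which turned positive with the scanner software's own log ratio. H2-Ab1 and H2-Eb1 each differed by 0.41 at D2 (adjusted p = 0.236 and 0.406) and by 0.01 and 0.22 at D3. Cd74 differed by 0.23 at D2 and 0.15 at D3, H2-DMa by 0.23 and -0.01, and H2-DMb1 by 0.21 and -0.02. With arrays centred on their medians in place of loess, the D2 median of class II was 0.05 and the differences of Cd74 and H2-DMb1 turned negative. The B cell genes Cd79a, Pax5 and Fcer2a were not above background on any liver.

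A few genes varied widely between livers of one dose. H2-Q1, a Q-region heavy chain, stood at 1.85, 4.55, 1.67, 3.50 and 3.17 in control livers and at 3.71, 1.08, 2.15 and 0.81 at D3. Among these, the livers of slide 1 (mice 2, 5 and 16) stood at 4.55, 3.17 and 3.71, while mouse 4 at 3.50 lay on slide 2. The part of the slide in this spread was not tested. The SD of H2-Q1 within groups was 1.03, at percentile 99.7 of genes tested in liver, where the median gene had 0.17. Its changes were the largest of any member at every dose and none was called (-0.89, -1.09 and -1.01, adjusted p = 0.805, 0.432 and 0.456). H2-T3, which encodes the thymus leukaemia antigen, was above background on 6 of 19 livers, those of mice 2 (1.99), 5 (1.56), 8 (1.74), 10 (1.55), 15 (1.89) and 16 (1.86), and at -0.04 to 0.47 on the other 13. These 6 mice spread over all dose groups, but their livers were exactly those hybridised on slide 1. On that slide 40.7 to 45.7% of spots were well above background, against 34.1 to 39.4% on slides 2 and 3. Animal and slide therefore cannot be told apart for H2-T3. H2-T3 was above background on 0 lungs and 1 forestomach.

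In forestomach BaA changed none of these genes detectably. Limma called 0 of 32 at D1 (0% of all genes tested), at D2 (0.00664%), at D3 (0.0199%) and over the trend (0.0332%), with 1, 0, 1 and 0 unadjusted p-values under 0.05 (5.67%, 3.8%, 5.36% and 5.32% of all genes). Counts stayed at 0 under every alternative. The largest differences at D3 were those of H2-DMb1 (0.47, 95% interval 0.06 to 0.88, adjusted p = 0.887), Nlrc5 (0.39, -0.21 to 0.98) and H2-Q4 (0.28). At D1 they were those of H2-Q7 (0.49, adjusted p = 0.931), H2-K1 (0.45) and Cd74 (0.44), and at D2 those of H2-DMb1 (0.36), H2-Q8 (-0.31) and B2m (-0.30, which turned positive with median centring). H2-DMb1 stood at 0.45, 0.45, 0.92 and 0.56 in controls and at 1.38, 1.23, 0.90, 1.10 and 0.72 at D3, so the groups overlapped. They did so for all 32 genes, with 0 free of overlap against 1.84%, 1.15% and 2.14% of all genes from D1 to D3.

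The wide intervals leave changes of moderate size undetectable in forestomach. At D3 H2-Aa differed by 0.16 (95% interval -0.53 to 0.85), H2-Ab1 by 0.11, H2-Eb1 by 0.06, Cd74 by 0.26, H2-DMa by 0.21 and Ciita by -0.03. Of class I, H2-K1 differed by 0.10 (-0.41 to 0.61), H2-D1 by 0.07, B2m by -0.15 (-0.71 to 0.40), H2-T23 by 0.08 and H2-M3 by -0.08. Among supply genes the differences were 0.11 for Tap1, 0.07 for Tap2, -0.06 for Tapbp, -0.11 for Psmb8, 0.19 for Psmb9 and -0.02 for Psmb10. Median changes were 0.13, 0.09 and 0.11 for class II, and 0.14, 0.00 and 0.05 for heavy chains.

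Glandular stomach was present in some forestomach samples. A list of glandular stomach genes ran from 1.02 to 5.62 at D0, with mouse 2 highest (the acid pump gene Atp4b at 6.38 against -0.11 to 0.02 in mice 1, 3 and 4), and from 4.55 to 5.99 at D1, high in all 5 mice. At D2 it was high in mice 14 and 15, and at D3 in mice 19 and 20 and partly in 17. Mouse 2 had the highest B2m of the controls (-0.80 against -1.88, -1.55 and -1.46) and the lowest H2-Aa (1.99). It was also the only control on slide 3, where 38.4 to 42.1% of spots were well above background, against 52.4 to 69.2% on slides 1 and 2. Every sample of slide 3 (mice 2, 7, 10, 15, 19 and 20) carried the glandular genes, as did some on the other slides. For mouse 2, glandular tissue and slide cannot be told apart. Without mouse 2 the difference of H2-Aa at D1 changed sign, and the counts of calls were still 0. The part of glandular tissue in the forestomach values was otherwise not tested. Mouse 10 (D1) was the highest of all forestomachs for 2 of 2 classical, 8 of 12 non-classical, 5 of 8 supply and 4 of 9 class II genes.

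The D3 effects were then compared between tissues. H2-Oa rose in lung by 0.91 and differed by 0.09 in forestomach (adjusted p = 0.999), and the difference between these effects was 0.82 (SE 0.17, 95% interval 0.48 to 1.16, limma adjusted p = 0.00845). It was the 1 gene of 32 called (0.274% of all genes tested, 0.253% more positive in lung), with 2 at an unadjusted p under 0.05 (9.43% of all genes). H2-Oa was above background on 4 of 19 forestomachs, so its values there, at -0.87 to -0.29, are close to the background and bound a change poorly. With mouse as a replicate block the difference was 0.82 (adjusted p = 0.00654), and it was 0.70 without mouse 4 (adjusted p = 0.0822), which loses the call. H2-Ob gave a difference of 0.67 (SE 0.19, adjusted p = 0.135).

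Lung and liver gave 0 of 30 calls on the difference of D3 effects (2.06% of all genes tested) and liver and forestomach 0 of 29 (0.0342%), each with 2 unadjusted p-values under 0.05 (15.3% and 8.05% of all genes). H2-Oa and H2-Ob, the genes called in lung at D3, were not among the 30, since they did not pass the filter in liver. The 0 therefore does not bear on them. With no filter on dim probes H2-Oa, H2-Ob and H2-Eb2 were called (0.78, 0.73 and 0.7), on liver ratios limited by background. Of the 30, Nlrc5 came nearest between lung and liver, with a difference of 0.99 (SE 0.35, adjusted p = 0.128), but its second probe gave -0.07 (SE 0.16). Next came H2-D1 with 0.51 (adjusted p = 0.23). Between liver and forestomach the same genes differed by -0.90 and -0.53 (adjusted p = 0.535 and 0.554). The fall of Nlrc5 in liver was called at D2, and no test of a tissue difference was made at that dose.

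Other genes of the pathway, from lists of the loading complex, class II processing, costimulation, other presenting molecules and interferon response, gave few calls. In lung 1 of 6 costimulatory genes was called at D2 and at D3, in each case Icosl, the ligand of ICOS, a costimulatory receptor on T cells. It stood at 1.38 to 1.63 in control lungs, 1.97 to 2.34 at D2 and 2.09 to 2.50 at D3, with no overlap, and rose by 0.70 and 0.84 (limma adjusted p = 0.000483 and 3.56e-05). Its D3 effect exceeded that in forestomach by 0.80 (adjusted p = 0.0126). Of 10 genes of class I loading and trimming, 12 of class II processing and 4 of other presenting molecules, 0 were called in lung at any dose.

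Slopes on dose called a few more genes in lung. Nfyc and Rfxank, subunits of the factors that bind the Y and X boxes, had rising slopes (adjusted p = 0.0032 and 0.0428), as did Mr1, which presents microbial vitamin metabolites (adjusted p = 0.0117). The loading chaperone gene Pdia3 had a falling slope (adjusted p = 0.00732). At the background of 12.8% such calls are common in this tissue.

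Interferon-stimulated genes, which share regulators with class I, had 0 of 20 calls in lung at each dose (0%, 0.593% and 2.04% of all genes). Their medians were 0.05, -0.15 and -0.06. In liver at D2, 2 of 19 fell, where 0.433% of all genes were called lower. These were Stat2 by 0.75 (SE 0.12, limma adjusted p = 0.00558) and Ifit3 by 0.69 (SE 0.14, adjusted p = 0.0233). Of the list, 17 of 19 were below 0, with a median of -0.42. At D3 0 of 19 were called (0.308% of all genes) and 17 of 19 were below 0, with a median of -0.22. The part of interferon genes in the Nlrc5 result at D2 was not tested. The regulatory proteasome gene Psme2 had a falling slope in liver (adjusted p = 0.0352), and none of these lists had a call in forestomach (0 genes at each dose).

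Some mice were extreme for many of these genes at once. In lung, mouse 4 (D0) was the lowest of its tissue for 7 of 11 class II genes. Mouse 14 (D2) was the highest for 4 of 11, and mouse 10 (D1) the highest for 8 of 13 non-classical heavy chains. The lung array of mouse 4, on slide 1, had 44.4% of spots well above background, the least of any lung array. The part of array quality in its low values was not tested. In liver, the class II genes of mice 10 (D1) and 14 (D2) lay above the mean of all livers by 0.67 and 0.69 on average, and mouse 14 was the highest of all livers for 4 of 6 class II genes. Over all genes the median SD within groups was 0.17 for lung and liver alike, and 0.21 for forestomach.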

How the data were processed

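Total RNA of each tissue was labelled with Cy5 and hybridised with Cy3-labelled Universal Mouse Reference RNA on Agilent 2-colour arrays, with no dye swap. Per the file headers, spot intensity on a linear scale, its background and a log10 ratio of red to green were read with Feature Extraction 10.7.3.1. The authors deposited a table of log2 ratios made from median signals without background subtraction and normalised by LOWESS. This table was used here. It held no missing values, its columns correlated with loess ratios computed from the intensities at r of 0.995 to 0.998, and its column medians were -0.0445 to -0.0222. The spots well above background made up 34.1 to 69.2% per array, and the number of arrays limits the precision. All sample columns were of this series (0 others).

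Of 55681 probes, 26413 were matched to a symbol through RefSeq accessions (GRCm38.p6). Because the scanner grid is of mm9, no gene coordinates are given except those of promoters. Where a gene had several probes (10 genes), the brightest stood for it. Tests took probes that 4 or more arrays of a tissue showed well above background in Cy5 (30383 in lung, 22789 in liver, 32318 in forestomach). Levels at D0 took probes that passed in either tissue of a pair, and D3 effects those that passed in both. The study used MAANOVA, which was not installed, so limma (release 3.58.1, run in R 4.3.3 on tables read by data.table, release 1.17.8) took its place, with 1 model per tissue for doses and trend, and 1 model of all 58 arrays for levels and effects between tissues. The study's thresholds (adjusted p of at most 0.05, fold of at least 1.5) were used, and the test was two-sided. The tests were checked on simulated data.

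Genes named were a group of 21 (the classical chains, partner, supply and transactivator genes of both classes, H2-T23 and H2-M3), every other member called in a dose contrast, a trend or a D3 effect between tissues, and the 3 members with the largest change per tissue and dose. Members and lists were chosen with earlier results of these data known. Lists are described by counts and medians with no test of the list, and 1 marker of the B cell list is not reported here. Alternatives were loess computed here, normexp background correction (offset 50, on median signals, since no mean-signal column was in the files), median centring, the scanner's log ratio, the Cy5 channel alone, other filters, the slide as a block, only the groups compared, the mean of a gene's probes, dose ranks, and each mouse left out.

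The labels give the same mouse number to tissues of 1 animal, so a fit with mouse as a replicate block was run as an alternative for comparisons between tissues. Deviations from group means of the same mouse correlated across genes by -0.05 to 0.21 for lung and liver (19 mice), -0.13 to 0.22 for lung and forestomach (19) and -0.11 to 0.13 for liver and forestomach (18).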

Additional observations from a re-analysis of the deposited data

Results flagged for a closer look

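In groups of 4 or 5 mice, 1 mouse stood far from the others of its group for 15 of 252 pairs of a named gene and a group. The gap was measured by Dixon's ratio at the 95% level, and chance marks about 1 in 20 groups. In liver, mouse 14 (D2) was high for H2-K1 (2.99, nearest 2.66), Psmb8 (0.10, nearest -0.16) and H2-DMa (0.10, nearest -0.43), and mouse 8 (D1) for H2-D1 (2.03, nearest 1.55) and Tapbp (0.17, nearest -0.25). Other livers were those of mouse 4 (D0) for H2-K1 (3.13, nearest 2.80), mouse 5 (D0) for H2-Aa (2.74, nearest 1.80), mouse 16 (D3) for Psmb8 (0.10, nearest -0.15) and mouse 18 (D3) for H2-Ab1 (3.73, nearest 3.38).

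In forestomach, mouse 10 (D1) was high for the immunoproteasome subunits Psmb8 (-1.38, nearest -2.45) and Psmb9 (-0.26, nearest -1.32) and for Tap2 (-0.80, nearest -1.42). Mouse 14 (D2), whose sample carried glandular stomach genes, was high for B2m (-0.90, nearest -1.80), and mouse 20 (D3), which also carried them, was low for Nlrc5 (-0.42, nearest 0.61). In lung, mouse 1 (D0) was low for H2-T23 (1.26, nearest 1.42). One difference between tissues passed its test, the D3 effect of H2-Oa, which was larger in lung than in forestomach by 0.82 (limma adjusted p = 0.00845). H2-Oa was above background on only 4 forestomachs, so its values there bound a change poorly. The call was lost with median centring, the scanner's log ratio or Cy5 alone.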

How the results depend on the processing

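No named call changed its sign under any alternative. Of the alternative values, 336 counts of calls stayed within 1.5 times and 48 did not, and 150 values of called genes kept their call and 34 lost it. Median centring without loess, which shifted the median of all genes in lung by 0.23, 0.49 and 0.23 at D1, D2 and D3, gave 0 calls in lung at D2, at D3 and over the trend (H2-Oa 1.23, 0.95 and 0.91, adjusted p = 0.327, 0.952 and 0.95), 0 for the liver trend, 0 for the D3 effect of lung against forestomach (H2-Oa 0.91, adjusted p = 0.966) and 19 for levels of lung against liver. It turned the median of lung heavy chains at D2 to 0.44, against 0.49 over all genes. The scanner's log ratio gave 1 call in lung at D2 and 1 at D3, and 0 for the liver trend and for lung against forestomach (H2-Oa 0.38, adjusted p = 0.986). The Cy5 channel alone gave 1, 0 and 0 for lung D3, the liver trend and lung against forestomach (H2-Oa 0.65, adjusted p = 0.133). The lung trend gave 2 calls with loess computed here, normexp, the filter on every array, the slide as a block, the mean of probes or dose ranks. No filter gave 0 for the liver trend and 3 for lung against liver (H2-Oa, H2-Ob and H2-Eb2), and the mean of probes 0 for the liver trend and 2 for lung against forestomach. For that comparison normexp gave 2 and the filter on every array 0. Fitting only the groups compared gave 0 for liver D2. The causes were not tested.

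Without single mice the counts ran from 2 to 3 in lung at D2 (3 without mouse 1), 1 to 3 in lung at D3 (1 without mouse 4, 5 or 17, 3 without 1 or 16), 1 to 3 for the lung trend (3 without mouse 6 or 16, 2 without 14 or 20), 0 to 1 for the liver trend (0 without mouse 1, 3, 4, 6, 7, 9, 11, 13, 16, 17, 18 or 19, adjusted p of H2-K2 0.0552 to 0.11), 0 to 1 for the D3 effect of lung against liver (1 without mouse 5 or 20) and 0 to 1 for lung against forestomach (0 without mouse 4), and for control levels from 27 to 29, 28 to 29 and 23 to 24. A replicate block on the mouse gave counts of 0, 1 and 0 for D3 effects and 29, 29 and 24 for control levels, so the paired fit changed no count. Of the control levels called, 18 of 29, 21 of 29 and 12 of 24 were called under all 16 settings. Other signs turned for some uncalled or scale-dependent genes, under median centring for Tap1 (lung against liver), H2-Eb1 (lung against forestomach) and H2-M3, H2-Oa, Nlrc5 and Psmb10 (liver against forestomach), and with Cy5 alone for Ciita (lung against forestomach) and Cd74 (liver against forestomach). Signal near background limits the dim genes H2-Oa, H2-Ob, H2-Eb2, H2-DMb2 and Ciita outside lung.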
